A study of Mus musculus with 9 samples.

Results

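Respiratory complexes II, III, IV and V, with the electron carrier cytochrome c between complexes III and IV, were described through 44 genes that encode their subunits. The genes were listed by name as subunits, with earlier results of these data known: 4 of complex II, 10 of complex III, cytochrome c itself, 13 of complex IV and 16 of complex V, the ATP synthase. Of these, 38 lie in the nuclear genome and 6 in the mitochondrial genome. They are 44 of the 27339 genes of the deposited table, which held each in 1 row except Atp5o, whose additional row had 0 counts in every library and was not used. All 44 passed the minimum level for testing, a mean of 0.5 FPKM (fragments mapped to a gene, per kilobase of its length and per M of all mapped fragments, where M is the prefix mega), as did 14949 genes in all.

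Bulk RNA was sequenced from the substantia nigra pars compacta of mice, 3 libraries in each of 3 groups. Control mice (Ctrl) are labelled by that name alone, another group received the neurotoxin MPTP (MPTP), and the last group received MPTP together with a ketogenic diet based on medium-chain triglycerides (labelled MPTP + MCT-KD, here the diet group). No source used here gives strain, age, sex, doses or times, and a group given the diet alone was not analysed here. The labels do not tie libraries to animals, so a p-value here reflects the spread of these libraries, which may be technical. MPTP is converted in the brain to a compound that dopamine neurons take up. The compound blocks complex I, which is not among the complexes described here. Transcripts of the dissected tissue come from all its cells, so fewer cells of a type and less RNA per cell cannot be told apart.

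Complex II oxidises succinate and passes electrons to ubiquinone. Complex III hands them on to cytochrome c, and complex IV, cytochrome c oxidase, uses them to reduce oxygen. Complexes III and IV pump protons across the inner mitochondrial membrane, and complex V lets them flow back to make ATP. Complex II is built from nuclear genes alone, whereas complexes III, IV and V combine nuclear subunits with a few that are encoded and made inside the mitochondrion, so that their assembly draws on both genomes. Neurons depend heavily on the ATP that this chain provides.

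Library totals lay between 33.2 and 40 M counts, and the 44 genes took 4.58% to 5.25% of them, of which the nuclear genes took 0.614% to 0.681%. The lowest count of any of the 44 in any library was 195, for Atp5k. Of the marker lists, none had its defining genes at 0 in every library. The summed level of 11 dopamine neuron markers was 863 to 1030 CPM (counts per M, scaled by TMM) in Ctrl, 737 to 839 CPM in MPTP and 692 to 852 CPM in the diet group, and all 11 lay below Ctrl in both groups given MPTP. The sum of 10 general neuron markers overlapped between the groups, at 6770 to 7364, 6779 to 7280 and 7147 to 7515 CPM. Markers of oligodendrocytes, the myelin-forming cells, summed to 10410 to 12610 CPM in Ctrl, 10950 to 13470 CPM in MPTP and 13250 to 14510 CPM in the diet group. All 8 lay above Ctrl in the diet group (median log2 0.25) and also in MPTP (median 0.16). In edgeR's test 7 of them had an unadjusted p under 0.05 for the diet group against Ctrl, beside 3.36% of all genes higher at that level. For MPTP against Ctrl 2 did, beside 5.36% of all genes in either direction. The 6 microglia markers summed to 226 to 252, 252 to 264 and 264 to 272 CPM. They also all lay above Ctrl, both in the diet group (median 0.19) and in MPTP (median 0.13). Against MPTP, 3 of 5 mural cell markers and 6 of 6 meningeal fibroblast markers were higher in the diet group, with medians of 0.68 and 0.71. Their sums were 219 to 225 CPM in MPTP against 211 to 271 CPM and 68.5 to 134 CPM in MPTP against 87.7 to 228 CPM. In Ctrl they summed to 238.1 to 241.5 and 147 to 181 CPM. Against Ctrl, MPTP had 3 of the 5 and 6 of the 6 lower, with medians of -0.53 and -0.53. The diet group had medians of 0.0098 and 0.10 against Ctrl. No marker of these 4 lists passed the adjusted threshold in edgeR's test, and their part in the values of the 44 genes was not tested. One control library, Ctrl 3, held 1192 CPM of 5 choroid plexus markers against 16.2 to 90.9 CPM in the other libraries. The diet group also summed wholly above Ctrl for 2 glutamate neuron markers (497 to 544 against 420 to 463 CPM), of which 1 lay above Ctrl. So did 7 astrocyte markers (3716 to 3898 against 3445 to 3651 CPM), of which 5 lay above. The 3 serotonin neuron markers summed to 40.4, 87.7 and 139.6 CPM in Ctrl 1, 2 and 3. They summed to 17.7 CPM in MPTP 1 and 22.1 in diet library 1. In MPTP 2 and 3 they summed to 143 and 90.5 CPM, and in diet libraries 2 and 3 to 169 and 127 CPM.

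Measured per transcript length, the mitochondrially encoded genes stood far above the nuclear ones. In Ctrl, mt-Co1 was the highest of all 14949 genes tested, at 14170 ± 723 FPKM (SD, n = 3), and mt-Atp6, mt-Cytb, mt-Atp8, mt-Co2 and mt-Co3 held ranks 2, 3, 4, 6 and 7. Among nuclear genes the median mean FPKM in Ctrl was 70.2 for complex II, 83.1 for complex III, 148 for complex IV and 118 for complex V, and Cycs lay at 46.0 ± 1.32 FPKM. The catalytic subunit gene Atp5b (582 ± 18.9 FPKM) and the complex IV gene Cox4i1 (447 ± 18.6 FPKM) were the highest nuclear genes, at ranks 35 and 53 of the genes tested. At the other end stood Atp5k, for the small e subunit of complex V (19.8 ± 2.64 FPKM), the membrane anchor gene Sdhc of complex II (26.5 ± 1.43 FPKM) and Uqcrq of complex III (30.7 ± 2.25 FPKM). Within complex II, whose subunits are present in equal numbers, the mean level of Sdha (176 ± 5.27 FPKM) was 6.63 times that of Sdhc.

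**Figure D1:**
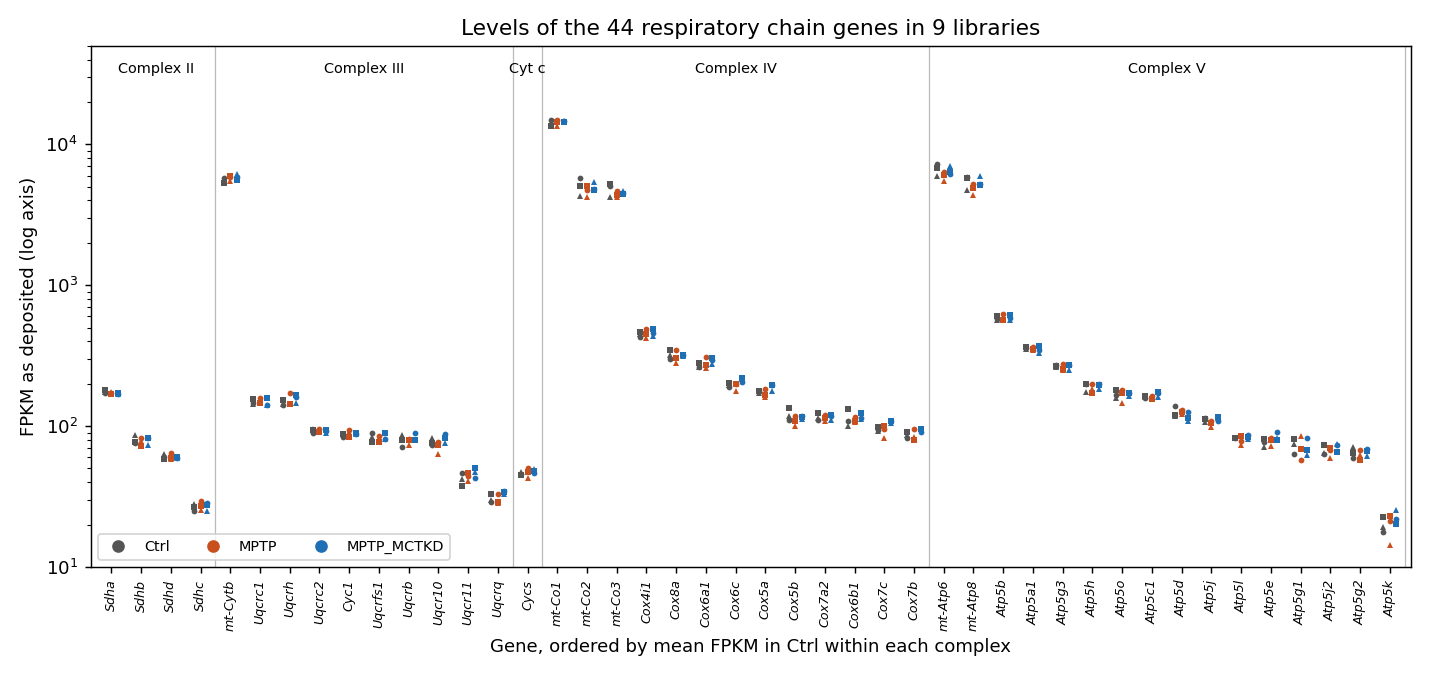
Deposited FPKM (log axis) of the 44 genes, ordered within each complex by their mean in Ctrl; each point is 1 library, coloured by group, with circles, squares and triangles for libraries 1, 2 and 3. The mitochondrially encoded genes lie at 4209 FPKM or above and the nuclear genes at 623.4 FPKM or below, and the points of the 3 groups overlap for nearly every gene.

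The promoters of nuclear respiratory genes are known for sites of the activators NRF1 and GABPA (also called NRF2), a shared feature by which these scattered genes can be transcribed together. RefSeq promoter windows (GRCm38.p6, 250 bases before to 50 after the start site) were matched by symbol for 30 of the 38 nuclear genes, in 33 windows. Both strands were searched for GCGCANGCG (NRF1 core), CCGGAAG (GABPA core) and AANATGGCG (YY1 core), each independently, so that matches may overlap. The NRF1 core stood in 13 of the 33 windows (39.4%), against 6.25% of all promoter windows and 12.2% of those of the genes tested here. The GABPA core stood in 12 (36.4%), against 8.86% and 15.6%, and the YY1 core in 3 (9.09%), against 2.38% and 4.46%. By complex, the NRF1 core stood in 2 of 3 windows of complex II, 2 of 5 of complex III and 7 of 16 of complex V. In complex IV it stood in 1 of 8 (12.5%), that of Cox6a1, a share near that of the genes tested. The GABPA core stood in 2 of 3, 2 of 5, 3 of 8 and 5 of 16 windows of complexes II to V. The YY1 core stood in complex V alone. A match is a string of letters in a window and not a measured site.

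The stretches below are shown as 1 example from each complex, written 5′ to 3′ on the strand of the gene, with matches to a core in capitals. Each is the nearest run free of annotated exons before the start site, at most 150 bases long. They are from Sdhd of complex II (chr9:50603850-50603909, minus strand), Uqcrh of complex III (chr4:116075072-116075221, minus strand), Cox6a1 of complex IV (chr5:115348982-115349129, minus strand) and Atp5h of complex V (chr11:115419963-115420112, minus strand). Cox7c of complex IV (chr13:86046905-86047045, minus strand) is added because it had the largest fold change of the 44 genes.
Sdhd: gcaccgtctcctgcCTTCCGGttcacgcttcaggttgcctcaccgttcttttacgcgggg
Uqcrh: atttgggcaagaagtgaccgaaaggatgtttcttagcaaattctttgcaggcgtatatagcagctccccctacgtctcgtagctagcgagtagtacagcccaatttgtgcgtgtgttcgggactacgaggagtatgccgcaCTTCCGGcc
Cox6a1: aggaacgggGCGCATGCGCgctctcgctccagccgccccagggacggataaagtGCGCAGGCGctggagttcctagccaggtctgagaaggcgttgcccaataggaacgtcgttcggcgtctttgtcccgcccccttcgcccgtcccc
Atp5h: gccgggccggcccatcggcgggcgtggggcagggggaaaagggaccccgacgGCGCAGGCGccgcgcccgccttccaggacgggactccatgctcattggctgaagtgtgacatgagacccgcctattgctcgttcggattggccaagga
Cox7c: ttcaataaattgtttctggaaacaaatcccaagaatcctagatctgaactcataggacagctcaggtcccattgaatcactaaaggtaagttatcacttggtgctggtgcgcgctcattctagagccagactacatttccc
The capitals in Sdhd and Uqcrh mark the GABPA core, read from the opposite strand, and those in Cox6a1 and Atp5h the NRF1 core, which Cox6a1 carries at 2 places, the first of them read on both strands. No core was found in the windows of 9 of the 30 genes, Cox7c, Cox5a and Uqcr10 among them, whereas that of Atp5j held the GABPA and the YY1 core.

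Between the mice given MPTP and Ctrl, none of the 44 genes passed the test. In edgeR's quasi-likelihood test 0 of 44 passed an adjusted p of 0.05, beside 0.0134% of all genes tested, and 0 had an unadjusted p under 0.05, beside 5.36% of all genes. DESeq2 also called 0 of the 44, with 1 at an unadjusted p under 0.05, a level at which its share of all genes was not counted. For no gene were the 3 libraries of MPTP separate from the 3 of Ctrl, where 10.5% of all genes were separate. The log2 fold changes ranged from -0.18 (mt-Atp8) to 0.06 (Cox6a1), with 30 below 0 and 14 above (49.6% of all genes were above 0), and a median of -0.024 beside -0.00092 over all genes tested. The median half-width of the 95% intervals was 0.15 on the log2 scale. The smallest adjusted p among the 44 was 0.915, for mt-Atp6.

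Against MPTP, the diet group had the 44 genes mostly on the higher side, by a few percent, and none passed the test. In edgeR's test 0 of 44 passed, as did 0% of all genes. DESeq2 called 0 of the 44, with 5 at an unadjusted p under 0.05, where its share of all genes was again not counted. The median log2 fold change was 0.069 (4.93%) beside 0.00056 over all genes, with 40 of 44 (90.9%) above 0 where 50.2% of all genes were. Only Sdhd, Uqcrc1, Uqcrc2 and Atp5d lay below 0. An unadjusted p under 0.05 was reached by 5 genes (11.4%), all higher, beside 3.76% of all genes in that direction: Cox7c, Uqcr10, Cox5a, Cox6c and Atp5j, with log2 fold changes of 0.24, 0.22, 0.18, 0.17 and 0.13 and adjusted p of 0.609 to 0.64 in edgeR's test. The 3 libraries of the diet group all lay above the 3 of MPTP for 3 genes, Cox6c, Cox7c and Atp5g1 (6.82%), a share near that of all genes (6.64%).

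Between the diet group and Ctrl, too, no gene passed the test. In edgeR's test 0 of 44 passed, beside 0% of all genes, and DESeq2 called 0. The median log2 fold change was 0.036 beside -0.0015 over all genes, and 35 of 44 were above 0, where 49.5% of all genes were. Cox7c alone had an unadjusted p under 0.05 (0.19, adjusted p = 0.74 in edgeR's test), 1 of 44 (2.27%) beside 3.36% of all genes higher at that level. The diet group stood wholly above Ctrl for 3 genes, Cycs, Cox6c and Cox7c (6.82%, beside 6.28% of all genes). The 3 comparisons share libraries with one another, so their values are given side by side and are not independent of each other.

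**Figure D2:**
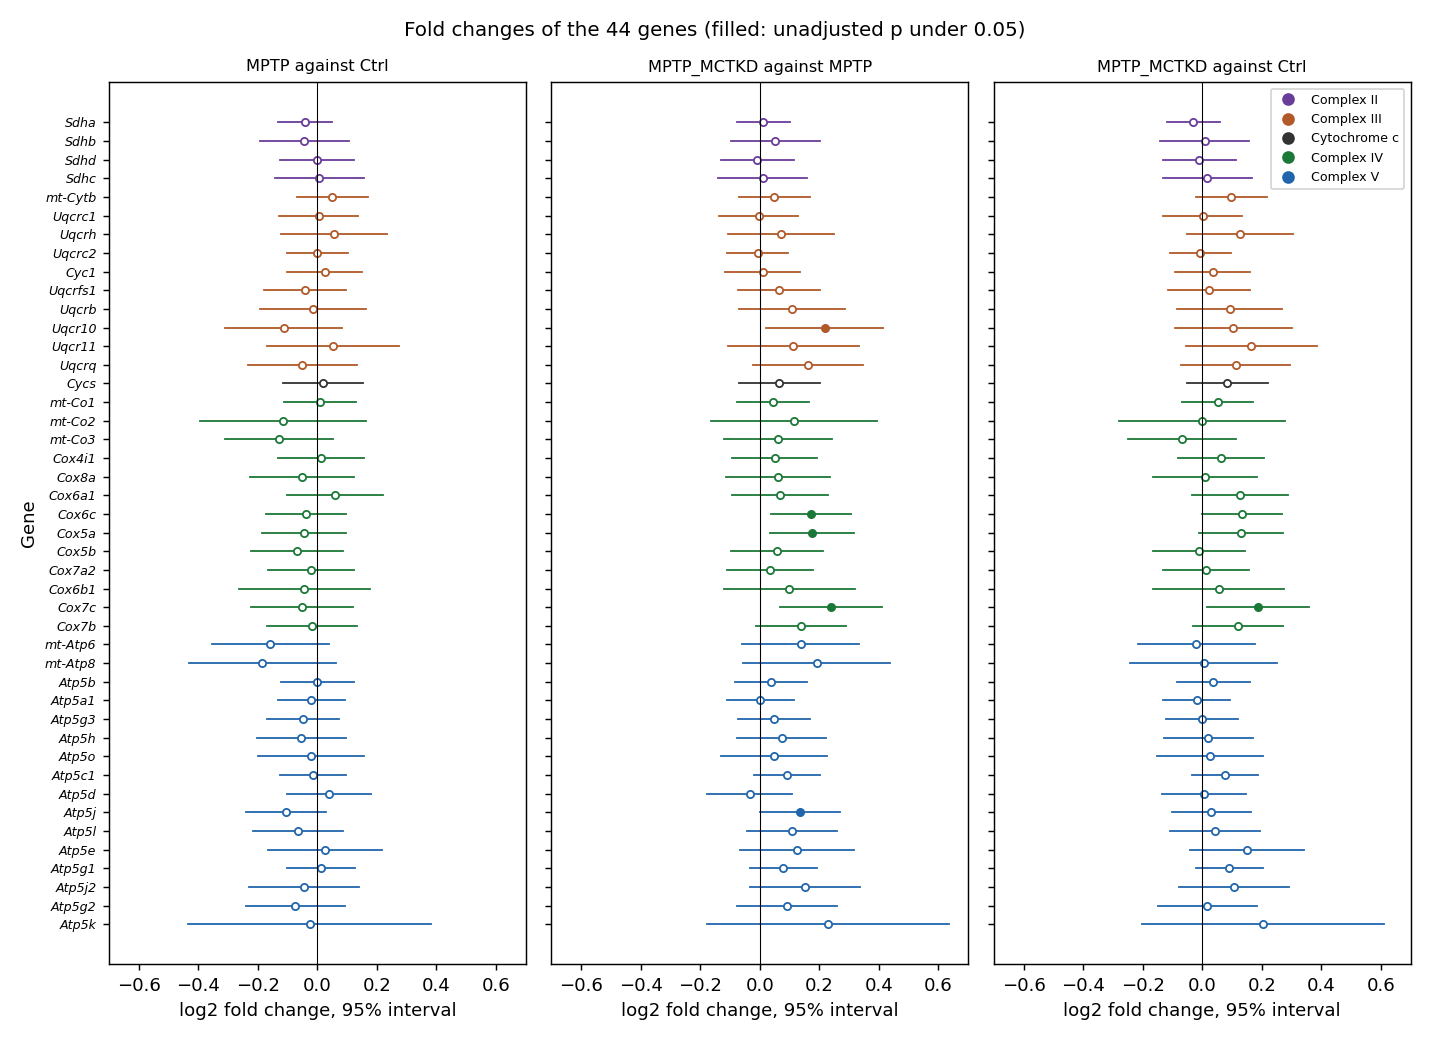
Log2 fold change (x axis) of each of the 44 genes (y axis) in the 3 comparisons, with 95% intervals from edgeR's quasi-likelihood fit; colours mark complexes, and filled points have an unadjusted p under 0.05. In the middle panel, the diet group against MPTP, 40 of 44 points lie above 0, and 5 are filled; no gene passes the adjusted threshold in any panel.

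The medians over the 44 genes moved with single libraries. For MPTP against Ctrl the direction turned without MPTP 3, whereas the medians of the diet group against MPTP and against Ctrl stayed above 0 without any 1 of the 9 libraries. MPTP 3 was the lowest of all 9 libraries for 29 of the 44 genes and MPTP 1 the highest for 15, so that the MPTP group held both the highest and the lowest levels. The median deviation of the 44 genes from the Ctrl mean was 0.073, -0.026 and -0.12 (log2) in MPTP 1, 2 and 3, against -0.015, 0.059 and -0.039 in the 3 control libraries and 0.060, 0.055 and 0.00038 in those of the diet group. Without MPTP 3, the median for MPTP against Ctrl turned from -0.024 to 0.029, with 31 of 44 above 0, and that for the diet group against MPTP was 0.035, with 27 above 0 and 1 gene at an unadjusted p under 0.05. Without MPTP 1, the same medians were -0.074, with 3 above 0, and 0.13, with all 44 above 0 and 11 at an unadjusted p under 0.05. The share of all genes at that level was not counted in these fits. Without Ctrl 2 the median for MPTP against Ctrl was -0.0016, with 22 above 0, and that for the diet group against Ctrl was 0.071, with 40 above 0.

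In MPTP 3 some other lists were low as well, and others were not. The median deviation there was -0.11 for 36 nuclear genes of complex I, -0.092 for 80 cytosolic ribosomal protein genes and -0.080 for 8 oligodendrocyte markers, whose summed level was 10950 CPM against 12950 and 13470 CPM in MPTP 1 and 2. The oligodendrocyte median was as low in Ctrl 1, at -0.085. The 10 general neuron markers had a median of -0.035 in MPTP 3 and 0.056 in MPTP 1. They were no higher in MPTP 2 (-0.038), Ctrl 1 (-0.045) and Ctrl 3 (-0.041). Medians above 0 in MPTP 3 were found for markers of microglia (0.12), glutamate neurons (0.084), astrocytes (0.054) and endothelium (0.029), among others. The part of these differences between libraries in the values of the 44 genes was not tested.

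**Figure D3:**
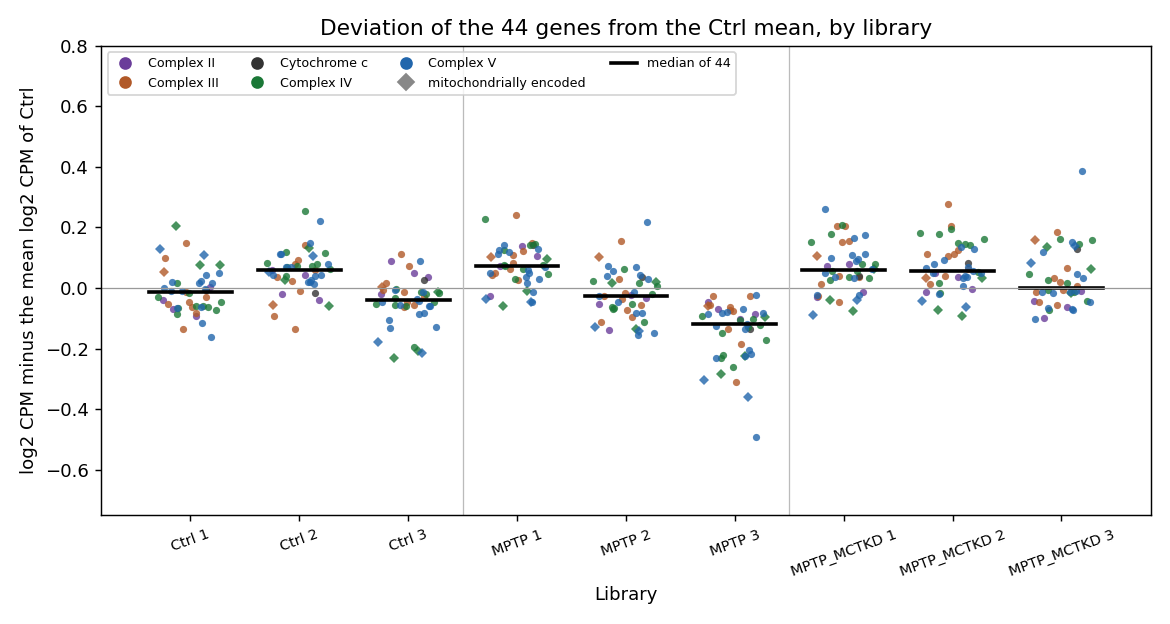
Deviation of each of the 44 genes from its mean in Ctrl (log2 CPM, y axis) in each library (x axis); points are genes, coloured by complex, diamonds are mitochondrially encoded and black bars are medians. The medians of MPTP 1 (0.073) and MPTP 3 (-0.12) are the highest and the lowest of the 9.

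Complex II lay closest to 0 of the complexes in the diet group. Its median log2 fold change was -0.022 for MPTP against Ctrl, 0.011 for the diet group against MPTP and -0.00069 for the diet group against Ctrl, and its 12 fold changes lay between -0.04 and 0.05. Sdha, the flavoprotein that binds succinate, was measured at 522, 558 and 528 CPM in Ctrl, 526, 517 and 519 in MPTP and 524, 531 and 520.5 in the diet group. Apart from Ctrl 2, its libraries lay within a range of 517 to 531 CPM, and it had the narrowest interval of the 44 genes for MPTP against Ctrl, -0.04 (SE 0.042, 95% interval -0.13 to 0.05). Sdhb, the iron-sulfur subunit that takes the electrons from Sdha, lay at 91.2, 94.2 and 102 CPM in Ctrl, 101, 86.8 and 91.1 in MPTP and 101, 98.9 and 89.2 in the diet group. The membrane anchors Sdhc and Sdhd, which hold the ubiquinone site, lay at 80.7, 88.7 and 89.1 CPM in Ctrl, 94.7, 84.8 and 80.2 in MPTP and 90.9, 88.2 and 82.4 in the diet group for Sdhc and at 78.4, 76.0 and 80.3 CPM in Ctrl, 84.2, 76.5 and 73.7 in MPTP and 77.5, 78.0 and 77.6 in the diet group for Sdhd. MPTP 1 was the highest library for both anchors and MPTP 3 the lowest, so the MPTP group spanned the other groups. The diet libraries of Sdhd were the closest together. For the diet group against MPTP the median of complex II ranged from -0.017 without MPTP 3 to 0.066 without MPTP 1, for MPTP against Ctrl from -0.059 without MPTP 1 to 0.011 without Ctrl 3, and for the diet group against Ctrl from -0.023 without Ctrl 1 to 0.027 without Ctrl 3.

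Complex III had a median log2 fold change of 0.0025 for MPTP against Ctrl, 0.068 for the diet group against MPTP and 0.095 for the diet group against Ctrl. The last of these comparisons had 9 of its 10 genes above 0, where 49.5% of all genes were. In it 0 of 10 passed in edgeR's test or had an unadjusted p under 0.05, beside 3.36% of all genes higher at that level. Leaving out single libraries took the median for MPTP against Ctrl from -0.047 (without MPTP 1) to 0.043 (without MPTP 3), that for the diet group against MPTP from 0.029 (without MPTP 3) to 0.12 (without MPTP 1), and that for the diet group against Ctrl from 0.051 (without diet library 1) to 0.099 (without diet library 2). Of the electron-carrying subunits, the nuclear Uqcrfs1 and Cyc1 are given here, and mt-Cytb with the mitochondrially encoded genes below. Uqcrfs1, the Rieske iron-sulfur protein, lay at 127, 112 and 118 CPM in Ctrl, 122, 110.1 and 114 in MPTP and 117, 129 and 118 in the diet group. Cyc1, cytochrome c1, lay at 132, 140.1 and 132 CPM in Ctrl, 149, 129 and 132 in MPTP and 138, 140.4 and 135 in the diet group. Their values overlapped in all groups. The log2 fold changes of Cyc1 were 0.02 for MPTP against Ctrl and 0.01 for the diet group against MPTP. For the diet group against Ctrl Cyc1 lay at 0.03. In the same order those of Uqcrfs1 were -0.04, 0.07 and 0.02. Uqcrc1, the larger core protein, lay at 255, 272 and 247 CPM in Ctrl, 278, 252 and 247 in MPTP and 249, 277 and 248 in the diet group, with log2 fold changes of 0.0048, -0.0036 and 0.0012 in the 3 comparisons. The other core gene, Uqcrc2, had 0.0002, -0.0066 and -0.0064, but 24.2% of the 50-base stretches of its transcripts also occur in the gene Pdzd9, so counts may be shared.

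The small supernumerary subunits of complex III, which surround the catalytic core, had its larger fold changes between the groups given MPTP. Uqcr10 (chr11:4701973-4704342, minus strand, GRCm38), which associates with cytochrome c1, was measured at 33.6, 34.9 and 37.0 CPM in Ctrl, 35.8, 33.4 and 28.3 in MPTP and 40.5, 37.96 and 35.0 in the diet group. MPTP 3 was the lowest of its 9 libraries, and the diet group overlapped MPTP only through 35.0 CPM in diet library 3 and 35.8 CPM in MPTP 1. The log2 fold change against MPTP was 0.22 (SE 0.091, 95% interval 0.02 to 0.42), with an unadjusted p of 0.0322 and an adjusted p of 0.63 in edgeR's test, and 0.13 without MPTP 3. Uqcrq, the lowest of the complex per transcript length, lay at 44.5, 52.0 and 45.3 CPM in Ctrl, 51.3, 44.1 and 41.5 in MPTP and 52.5, 51.4 and 49.4 in the diet group, with 0.16 (SE 0.085, 95% interval -0.02 to 0.35) for the diet group against MPTP, 0.10 without MPTP 3 and 0.26 without MPTP 1. Uqcrb, Uqcrh, the hinge protein at cytochrome c1, and Uqcr11 lay at 0.11, 0.07 and 0.11 in that comparison. For Uqcrb 43.4% of the 50-base stretches occur in other genes or pseudogenes as well.

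Cytochrome c, encoded by Cycs in somatic cells, carries electrons from complex III to complex IV and triggers caspase activation when it leaves the mitochondrion. It was measured at 150.1, 149 and 154 CPM in Ctrl, 167, 155 and 138 in MPTP and 155, 159.8 and 165 in the diet group. Each diet library lay above each control library, although the 2 groups were only 1.6 CPM apart at their nearest, and MPTP held both the highest and the lowest value. The log2 fold changes were 0.02 for MPTP against Ctrl, 0.07 for the diet group against MPTP and 0.08 for the diet group against Ctrl (adjusted p = 0.987, 0.826 and 0.847 in edgeR's test). Cycs shares 28.5% of its 50-base stretches with other loci, many of them pseudogenes.

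Complex IV had a median log2 fold change of -0.043 for MPTP against Ctrl, with 10 of 13 genes below 0 (49.6% of all genes were above 0). For the diet group against MPTP the median was 0.068, with 13 of 13 above 0 beside 50.2% of all genes. In edgeR's test 3 of the 13 (23.1%) had an unadjusted p under 0.05 there, beside 3.76% of all genes higher at that level. Of 36 nuclear complex I genes, 6 did (16.7%). Against Ctrl the diet group had a median of 0.056. Without MPTP 3 the median against MPTP was 0.010, with 7 of 13 above 0, and without MPTP 1 it was 0.15. For MPTP against Ctrl the median turned to 0.028, with 10 above 0, without MPTP 3 and was -0.091 without MPTP 1, and for the diet group against Ctrl it lay between 0.044 (without diet library 2) and 0.099 (without Ctrl 2). No gene passed in edgeR's test in any comparison, with 0, 3 and 1 genes at an unadjusted p under 0.05, and DESeq2 called none. The 1 gene, for the diet group against Ctrl, is 7.69% of the 13 beside 3.36% of all genes higher at that level.

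Cox7c, a small subunit that spans the membrane (chr13:86044816-86046904, minus strand, GRCm38), was measured at 53.7, 57.1 and 52.1 CPM in Ctrl, 55.4, 56.7 and 45.3 in MPTP and 62.7, 62.1 and 60.8 in the diet group. All 3 diet libraries lay above all 6 others, and MPTP 3 lay well below its own group. Against MPTP the log2 fold change was 0.24 (SE 0.079, 95% interval 0.07 to 0.41), with an unadjusted p of 0.00991 and an adjusted p of 0.609 in edgeR's test, and against Ctrl it was 0.19 (SE 0.079, 95% interval 0.02 to 0.36). Without MPTP 3 the value against MPTP was 0.14, and without MPTP 1 it was 0.28, with adjusted p of 0.891 and 0.414 in edgeR's test. Of the 50-base stretches of Cox7c, 23.0% occur in pseudogenes as well.

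Cox6c and Cox5a followed. Cox6c, another small membrane subunit, lay at 103, 111 and 105 CPM in Ctrl, 109.6, 107 and 94.2 in MPTP and 112, 119 and 118 in the diet group, so that the diet group stood wholly above both other groups, with 0.17 (SE 0.063, 95% interval 0.04 to 0.31) against MPTP (adjusted p = 0.627 in edgeR's test). Cox5a, a subunit on the matrix side, lay at 119.8, 122 and 114 CPM in Ctrl, 125, 113 and 107 in MPTP and 134, 134 and 121 in the diet group, with 0.18 (SE 0.066, 95% interval 0.03 to 0.32) against MPTP (adjusted p = 0.627 in edgeR's test). For Cox5a, diet library 3 lay below MPTP 1. Without MPTP 3 the fold changes of Cox6c and Cox5a against MPTP were 0.11 and 0.12.

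The other nuclear genes of complex IV overlapped between all groups. Cox4i1, the ubiquitous form of the subunit through which ATP inhibits the enzyme, lay at 336, 368 and 347 CPM in Ctrl, 386, 354 and 320.0 in MPTP and 364, 387 and 346 in the diet group. Cox6a1, the non-muscle form of subunit VIa, lay at 158, 170.5 and 155 CPM in Ctrl, 189, 164 and 151 in MPTP and 179, 183 and 166 in the diet group. Cox7a2, the non-muscle form of subunit VIIa, lay at 76.3, 87.0 and 77.7 CPM in Ctrl, 84.7, 79.1 and 73.7 in MPTP and 82.2, 83.3 and 77.8 in the diet group. In all of these, MPTP 3 was the lowest of the 9 libraries. Cox7b, the lowest nuclear gene of the complex per transcript length, lay at 87.4, 96.5 and 90.1 CPM in Ctrl, 101, 84.3 and 85.1 in MPTP and 96.3, 101 and 101 in the diet group, and had 0.14 (SE 0.07, 95% interval -0.01 to 0.29) for the diet group against MPTP, and 0.23 without MPTP 1. Cox5b, which binds zinc, Cox6b1, which faces the intermembrane space, and Cox8a had log2 fold changes of 0.06, 0.10 and 0.06 in that comparison and -0.07, -0.04 and -0.05 for MPTP against Ctrl.

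Complex V had a median log2 fold change of -0.035 for MPTP against Ctrl, with 13 of 16 genes below 0 (49.6% of all genes were above 0). The median was 0.092 for the diet group against MPTP, with 15 of 16 above 0 beside 50.2% of all genes, and 0.029 for the diet group against Ctrl. None passed in edgeR's test or in DESeq2. In edgeR's test 0, 1 and 0 had an unadjusted p under 0.05, the 1 being 6.25% beside 3.76% of all genes higher at that level. Without MPTP 3 the median for MPTP against Ctrl turned to 0.014, with 10 of 16 above 0, and that for the diet group against MPTP was 0.056, with 12 above 0. Without MPTP 1 they were -0.083 and 0.13, and for the diet group against Ctrl the median lay between 0.0065 (without Ctrl 3) and 0.059 (without diet library 3). The genes of the catalytic head lay near 0. Atp5a1, the alpha subunit, was measured at 931, 959.5 and 902 CPM in Ctrl, 963, 913 and 877 in MPTP and 915, 974.6 and 866 in the diet group. Atp5b, the beta subunit that carries the catalytic sites, lay at 1162, 1228 and 1125 CPM in Ctrl, 1271, 1133 and 1109 in MPTP and 1202, 1248 and 1157 in the diet group. Both overlapped in every comparison, and their log2 fold changes for the diet group against MPTP were 0.00 and 0.04. Atp5c1, Atp5d and Atp5e, which form the central stalk that turns inside the head, lay at 0.09, -0.03 and 0.13 in the same comparison.

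In the peripheral stalk, which holds the head in place, Atp5j (subunit F6) was measured at 96.5, 96.3 and 88.5 CPM in Ctrl, 92.8, 88.4 and 80.6 in MPTP and 92.3, 98.4 and 96.8 in the diet group. MPTP 3 was the lowest library, and the groups overlapped, since diet library 1 lay below MPTP 1. Its log2 fold change was -0.10 (SE 0.062, 95% interval -0.24 to 0.03) for MPTP against Ctrl and 0.13 (SE 0.062, 95% interval 0.00 to 0.27) for the diet group against MPTP, with an unadjusted p of 0.0494 and an adjusted p of 0.64 in edgeR's test, and 0.08 without MPTP 3. Atp5h (subunit d) and Atp5o, which joins the stalk to the head, lay at 0.07 and 0.05 for the diet group against MPTP. Of the 50-base stretches of these genes, 36.9% and 47.6% also occur elsewhere.

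The ring of c subunits, which turns as protons pass, is encoded by Atp5g1, Atp5g2 and Atp5g3, whose mature products are the same protein. Per transcript length Atp5g3 was the highest of them in Ctrl (268 ± 3.58 FPKM), followed by Atp5g1 (72.7 ± 9.16 FPKM) and Atp5g2 (65.0 ± 5.62 FPKM), and the latter pair did not differ beyond their spread. The counts put Atp5g3 at 205, 205 and 196 CPM in Ctrl, 211, 191 and 184 in MPTP and 207, 207 and 192 in the diet group. Atp5g1 lay at 85.4, 87.0 and 80.9 CPM in Ctrl, 86.2, 86.1 and 83.1 in MPTP and 91.3, 92.3 and 86.3 in the diet group, and Atp5g2 at 44.6, 49.2 and 51.4 CPM in Ctrl, 50.05, 43.4 and 44.5 in MPTP and 51.4, 49.7 and 45.9 in the diet group. None of the 3 separated any pair of groups, except that Atp5g1 in the diet group lay wholly above MPTP by 0.16 CPM at its nearest, with 0.08 (SE 0.053, 95% interval -0.03 to 0.19). The FPKM of Atp5g1 is less certain than its count, since the transcript length implied by count and FPKM differed 1.48-fold between libraries, and on log2 FPKM its fold change for the diet group against MPTP was 0.01. Atp5g2 shares 38.4% of its 50-base stretches with other loci.

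Subunits e, f and g lie in the membrane, where e and g take part in joining complexes V into pairs. Atp5k, subunit e, was measured at 6.88, 8.97 and 7.38 CPM in Ctrl, 8.42, 8.95 and 5.47 in MPTP and 8.69, 7.998 and 10.1 in the diet group. Its log2 fold change for the diet group against MPTP, 0.23 (SE 0.19, 95% interval -0.18 to 0.64), had the widest interval of the 44 genes and was 0.04 without MPTP 3. Atp5j2 (subunit f) and Atp5l (subunit g) lay at 0.15 and 0.11. For Atp5l, 84.8% of the 50-base stretches occur in other loci, so that its counts are uncertain.

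The 6 mitochondrially encoded genes did not all follow the same libraries. In edgeR's test 0 of 6 passed in any comparison or had an unadjusted p under 0.05. Cytochrome b, mt-Cytb (chrM:14145-15288), which passes electrons between the ubiquinone sites of complex III, lay at 6925, 6424 and 6688 CPM in Ctrl, 7167, 7171 and 6410 in MPTP and 7178, 6825 and 7449 in the diet group. The catalytic subunit of complex IV, mt-Co1 (chrM:5328-6872), which binds the hemes and reduces oxygen, lay at 24210, 22030 and 22750 CPM in Ctrl, 24570, 23310 and 21500 in MPTP and 23990, 23520 and 23990 in the diet group. For both, MPTP 3 was the lowest library within its group and the groups overlapped. The log2 fold changes of mt-Cytb and mt-Co1 were 0.05 and 0.01 for MPTP against Ctrl. For the diet group they were 0.048 and 0.044 against MPTP and 0.098 and 0.052 against Ctrl. The value of mt-Cytb against Ctrl had the smallest unadjusted p of complex III in that comparison, 0.0975 (adjusted p = 0.786 in edgeR's test).

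The 4 genes between mt-Co1 and mt-Cytb were lowest in Ctrl 3 and MPTP 3. Subunit 2 of complex IV, mt-Co2 (chrM:7013-7696), which receives electrons from cytochrome c, lay at 4155, 3667 and 3065 CPM in Ctrl, 3453, 3641 and 2956 in MPTP and 3502, 3428 and 3956 in the diet group. Subunit 3, mt-Co3 (chrM:8607-9390), lay at 4164, 4326 and 3421 CPM in Ctrl, 3924, 3593 and 3378 in MPTP and 3743, 3708 and 3908 in the diet group. In both genes Ctrl 3 and MPTP 3 were the lowest of the 9 libraries. The proton channel of complex V, mt-Atp6 (chrM:7927-8607), lay at 5201, 4932 and 4202 CPM in Ctrl, 4643, 4349 and 3851 in MPTP and 4472, 4621 and 5041 in the diet group. Its small neighbour mt-Atp8 (chrM:7766-7969) lay at 1258, 1254 and 1006 CPM in Ctrl, 1130, 1057 and 908 in MPTP and 1134, 1116 and 1283 in the diet group, and again Ctrl 3 and MPTP 3 were at the bottom. The median deviation of these 4 genes from the Ctrl mean was -0.21 in Ctrl 3 and -0.29 in MPTP 3, and between -0.13 and 0.12 in the other libraries. For the 7 mitochondrially encoded genes of complex I it was -0.0030 in Ctrl 3 and -0.086 in MPTP 3.

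The log2 fold changes for MPTP against Ctrl were -0.18 (SE 0.11, 95% interval -0.43 to 0.06) for mt-Atp8 and -0.16 (SE 0.089, 95% interval -0.36 to 0.04) for mt-Atp6, -0.13 for mt-Co3 and -0.12 for mt-Co2 (adjusted p = 0.915 to 0.955 in edgeR's test). They depended on both low libraries. Without MPTP 3 they lay between -0.10 and -0.03, and without Ctrl 3 between -0.28 and -0.22, with adjusted p of 0.878 to 0.997 over these fits in edgeR's test. The ratio of mt-Co2 to mt-Co1 counts was 0.172, 0.166 and 0.135 in Ctrl, 0.141, 0.156 and 0.137 in MPTP and 0.146, 0.146 and 0.165 in the diet group, whereas that of mt-Cytb to mt-Co1 stayed between 0.286 and 0.310. Over the 9 libraries the median Pearson correlation of log2 CPM was 0.90 within the 4 genes, 0.85 between mt-Co1 and mt-Cytb and 0.48 across these sets. These are descriptions, since all values of a library share its RNA and scaling.

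The reads of mt-Atp8 and mt-Atp6 cannot be wholly separated, because the end of the first coding sequence is also the start of the second. The shared stretch (chrM:7927-7969, plus strand, GRCm38) is 43 bases long, and is shown with the start codon of mt-Atp6 at its beginning and the stop codon of mt-Atp8 at its end.
mt-Atp8 and mt-Atp6: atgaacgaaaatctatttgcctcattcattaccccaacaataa
A nuclear copy of mitochondrial DNA lies on chr1 as well. Of all 50-base stretches, 100% of mt-Co2, 99.9% of mt-Co3, 99.5% of mt-Atp6 and 51.1% of mt-Co1 occur in annotated pseudogenes or other loci, among them Gm28661 (chr1:24614885-24615565) for mt-Co2 and Gm28437 (chr1:24613189-24613971) for mt-Co3, and 0 of mt-Atp8 and mt-Cytb do. These pseudogenes have no row among the values used here, and how the deposited counts treated such reads is not given in the sources used here. Only annotated transcripts were searched, so the unannotated sequence between these pseudogenes was not compared with mt-Atp8 or any other gene, and the part of such reads in the low values was not tested.

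**Figure D4:**
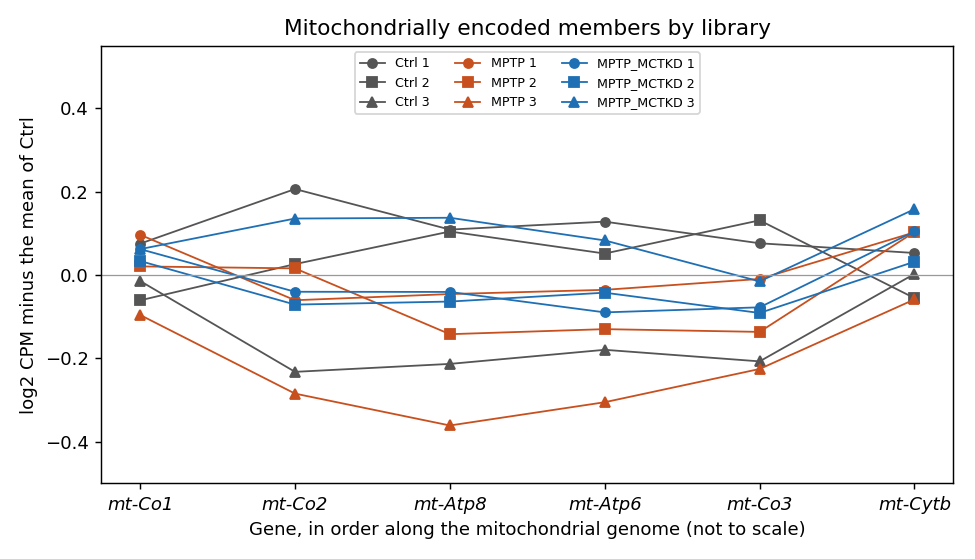
Deviation of the 6 mitochondrially encoded genes from their mean in Ctrl (log2 CPM, y axis), in order along the mitochondrial genome (x axis, not to scale); each line is 1 library, coloured by group. Ctrl 3 and MPTP 3 dip together over mt-Co2, mt-Atp8, mt-Atp6 and mt-Co3, to medians of -0.21 and -0.29, and lie nearer to 0 at mt-Co1 and mt-Cytb.

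Among the 38 nuclear genes, those with short transcripts had the larger fold changes in the diet group. Against MPTP, Spearman's rho between transcript length and log2 fold change was -0.655 across the 38 genes, beside -0.0195 across all genes tested. The 22 genes under 1000 bases had a median of 0.10 and the 16 longer ones 0.025. Over all genes tested, the 936 under 1000 bases had a median of 0.034 in this comparison and the longer ones -0.0011, so that short genes lay higher there too. Against Ctrl the diet group had a rho of -0.588 and medians of 0.077 and 0.020, and for MPTP against Ctrl rho was 0.224 with medians of -0.044 and -0.0012. Over all genes tested the short and the longer genes had medians of 0.0037 and -0.0018 for the diet group against Ctrl. For MPTP against Ctrl they were -0.0295 and 0.00045. Genes are not independent replicates, so no p is given, and the length of 1000 bases was chosen after the values were seen.

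Across the 38 genes, rho between length and a library's deviation from the mean of the 9 libraries was 0.198, 0.0115 and 0.307 in Ctrl, 0.238, -0.165 and 0.625 in MPTP and -0.538, -0.248 and -0.453 in the diet group. All 3 diet libraries were below 0 and MPTP 3 was the highest of the 9, whereas across all genes tested the values lay between -0.113 and 0.0866. Without MPTP 3 rho for the diet group against MPTP was -0.425, with medians of 0.050 for the short genes and -0.0032 for the long ones, and without any other single library it lay between -0.671 and -0.569. For the diet group against Ctrl it was between -0.588 and -0.423 without single libraries, the value nearest 0 being that without diet library 1, and for MPTP against Ctrl it turned to -0.143 without MPTP 3. In other lists of short abundant transcripts, for the diet group against MPTP, rho was -0.109 across 36 nuclear complex I genes and -0.272 across 80 cytosolic ribosomal protein genes. For the diet group against Ctrl it was 0.231 and 0.139 in these lists, of the opposite sign to that of the 38 genes. Whether length or the library had a part in the fold changes was not tested. The short genes are also for the most part the small supernumerary subunits, while the long ones include the catalytic Sdha, Uqcrc1, Atp5a1 and Atp5b, so size and role cannot be told apart here.

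**Figure D5:**
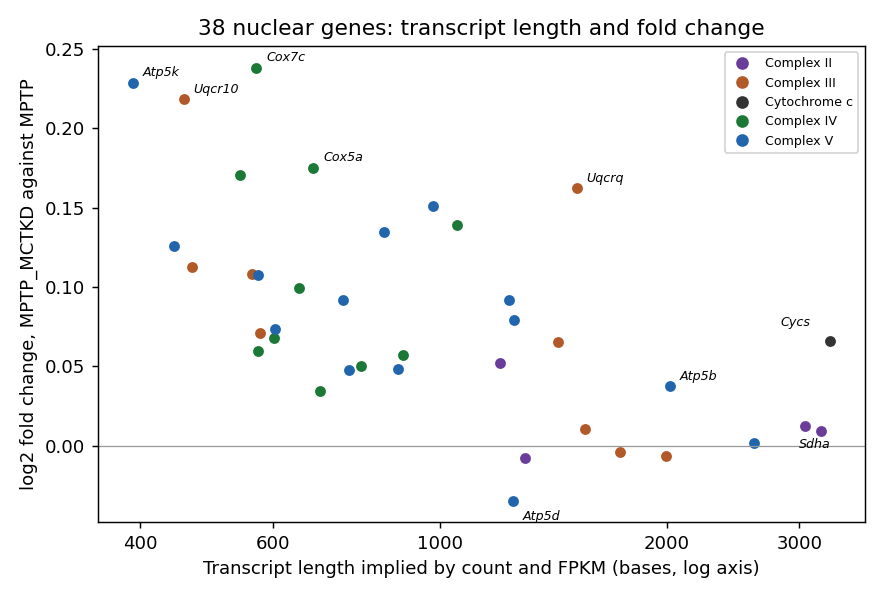
Log2 fold change of the diet group against MPTP (y axis) against the transcript length implied by count and FPKM (x axis, log scale) for the 38 nuclear genes, coloured by complex. Points under 1000 bases have a median of 0.10, with Cox7c (0.24), Atp5k (0.23) and Uqcr10 (0.22) at the top; those of 1000 bases or more have a median of 0.025.

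Across the 9 libraries the 38 nuclear genes varied together to a moderate degree, as a description of libraries that share RNA input and scaling. The median pairwise Pearson correlation of log2 CPM was 0.60 among them, highest within complex IV (0.71), then complex V (0.61), complex II (0.49) and complex III (0.43). It was 0.54 with nuclear genes of complex I, 0.32 with cytosolic ribosomal protein genes and 0.37 with the 6 mitochondrially encoded genes.

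Genes around the chain are given for comparison. The 36 nuclear genes of complex I had medians of -0.045 for MPTP against Ctrl, 0.066 for the diet group against MPTP (33 above 0, or 91.7% beside 50.2% of all genes; 6 at an unadjusted p under 0.05, all higher, or 16.7% beside 3.76% of all genes) and 0.032 for the diet group against Ctrl. For the 44 genes these medians were -0.024, 0.069 and 0.036, and the difference between the lists was not tested. The 7 mitochondrially encoded genes of complex I had a median of 0.088 for MPTP against Ctrl, where the 6 described above had -0.12.

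Assembly factors, the chaperones and cofactor carriers that put the complexes together, had 36 of 37 genes tested, a median of 0.052 for the diet group against MPTP and 29 above 0 (80.6%, beside 50.2% of all genes). None passed in edgeR's test, and 4 had an unadjusted p under 0.05, 3 of them higher, where 3.76% of all genes were higher at that level: Uqcc2, needed to make cytochrome b (0.27, SE 0.082), Cox17, a copper carrier for complex IV (0.27, SE 0.092), and Slirp, which stabilises mitochondrial mRNA (0.29, SE 0.13), with adjusted p of 0.588, 0.625 and 0.630 in edgeR's test. The gene that was lower was Sdhaf1, an assembly factor of complex II (-0.25, SE 0.12, adjusted p = 0.641), which lay at 0.37 (log2, SE 0.11) for MPTP against Ctrl, with an adjusted p of 0.893 in edgeR's test.

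Other subunits and tissue forms of complexes III to V had 12 of 15 genes tested, with 0 called. Cox6b2, a form of Cox6b known from testis, had log2 fold changes of -0.58 (SE 0.27) for MPTP against Ctrl and 0.68 (SE 0.27) for the diet group against MPTP, with adjusted p of 0.904 and 0.630 in edgeR's test. Of 18 regulators of respiratory genes and of mitochondrial transcription, 0 were called in edgeR's test in any comparison. Ppargc1a, the coactivator PGC-1alpha, had 0.15 (SE 0.084) for MPTP against Ctrl and 0.22 (SE 0.084) for the diet group against Ctrl, and Yy1 had 0.13 (SE 0.055) for the diet group against MPTP, with adjusted p of 0.915, 0.740 and 0.630. The 18 genes of the outer membrane and of protein import had medians of -0.011, 0.014 and 0.0088 in the 3 comparisons.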

How the data were processed

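RNA was measured by sequencing in 9 libraries, 3 in each group, each mapped to its group by its title. Total RNA was isolated with an RNeasy kit and made into NEBNext Ultra libraries, per the labels' protocols. Per the file headers, the authors' single table gives raw counts and FPKM for every gene in every library. Per the submitters' processing notes the build was GRCm38 (mm10). The sources used here name no aligner, counter, annotation or strand setting, so reads of overlapping genes and near-identical copies may be exchanged.

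Lines without a gene name, 10 in number, were left out. Counts of the 14949 genes with a mean of at least 0.5 FPKM entered edgeR's robust quasi-likelihood test (version 4.0.16, TMM factors of 0.9835 to 1.015) in R 4.3.3, all 9 libraries in 1 model, with Benjamini-Hochberg adjustment over all genes and a threshold of 0.05. The biological coefficient of variation was 0.134. Intervals are 95% intervals from the fit and cover the spread between libraries. FPKM was used for levels between genes, and CPM between libraries. Genes were named with the values of every library if they had the smallest p of their complex in a comparison or its highest or lowest FPKM, or stood on a list of subunits named in any case, and Cox5a and Cox6c were added for their unadjusted p. Of the other lists, the genes of smallest p were named. The members and lists were chosen with earlier results of these data known. The NRF1 core was shortened by 1 letter after counts with a longer form were seen. Coordinates and 50-base matches used the annotated transcripts of GENCODE M21 (GRCm38). The fit was tested on simulated data. Same-numbered libraries of MPTP and the diet group correlated at 0.194, 0.120 and 0.137 in their deviations from the group means, which meets the minimum of 0.1 for pairing by number, judged from the data alone. No 2 libraries of a group agreed within sampling noise (chi-square per degree of freedom 10.5 to 19.6). Alternatives were DESeq2 1.42.0, limma 3.58.1 on log2 FPKM, other scalings and filters, blocks and left-out libraries.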

Additional observations from a re-analysis of the deposited data

How the results depend on the processing

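None of the 44 genes was called in any comparison under any of 22 alternatives, in which the lowest adjusted p was 0.5 for MPTP against Ctrl, 0.358 for the diet group against MPTP and 0.411 for the diet group against Ctrl. Genes at an unadjusted p under 0.05 numbered 0 to 5, 1 to 14 and 1 to 7, and the share of all genes at that level was not counted under these alternatives. Under the 11 alternatives other than leaving out 1 library or a pair, some of them fitted to the 2 groups compared alone, the median log2 fold changes of the 44 genes lay between -0.029 and -0.021, 0.053 and 0.072, and 0.021 and 0.040. Leaving out single libraries gave -0.074 to 0.029, 0.035 to 0.13 and 0.025 to 0.071. With Ctrl 3 and MPTP 1 left out together the diet group had all 44 genes above MPTP, 14 of them at an unadjusted p under 0.05. On log2 FPKM Atp5g1 and Atp5d, whose implied lengths varied between libraries, differed from their values on counts by more than the spread. So did Sdha, whose implied length differed only 1.022-fold, at -0.0087 for the diet group against MPTP. On log2(FPKM + 0.1), 36 of the 44 genes lay above 0 for the diet group against MPTP and 28 against Ctrl. The medians over all genes were there -0.0206 and -0.0175.

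With the replicate number as a block, 0 of the 44 genes were called in each comparison. For the diet group against MPTP the lowest adjusted p was 0.539 in edgeR's test. The labels give no pairing of these groups, and pairing by number was judged from the data alone. A block fitted in the 2 groups alone, chosen after seeing the data, called 11 genes of all tested and 0 of the 44 (lowest adjusted p = 0.456). The 44 genes had at least 195 counts in every library; how much of an interval comes from counting and how much from the spread between libraries was not separated.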
